A study of Homo sapiens with 12 samples.

Results

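Genes of homologous recombination and of the Fanconi anaemia pathway were examined as a set of 34 genes, found by gene symbol in a count table of 57500 genes, and each symbol matched 1 row. The 12 RNA libraries came from 3 established human tumour lines, with 3 biological replicates in each of 4 groups. SW480 came from a primary colorectal tumour and SW620 from a metastasis of the same patient, and both were grown untreated in DMEM with serum. PEO4, an ovarian cancer line, was grown in RPMI 1640 with serum, either in this medium alone (control) or with 10 ng/mL of recombinant TGF-β for 6 days. PEO4 is known as a line from a platinum-resistant recurrence in which a second change restored the reading frame of BRCA2, and each group rests on a single line. SW620 was set against SW480, a metastatic against a primary line, and treated against untreated PEO4.

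Homologous recombination repairs double-strand breaks from an intact sister copy. The MRE11-RAD50-NBN complex and the kinase ATM sense the break, RBBP8 (CtIP) and the nuclease EXO1 resect its ends, and BRCA1 with BARD1, PALB2 and BRCA2 act as mediators that start strand exchange on the exposed strand, helped by a family that includes RAD51B, RAD51C, RAD51D, XRCC2 and XRCC3. The Fanconi core complex attaches ubiquitin to FANCD2 and FANCI at crosslinked DNA, after which nucleases, helicases and recombination complete the repair. Many of these genes are transcribed mainly in cells that replicate their DNA, so their level in a culture moves with its share of cycling cells. POLQ joins ends through short repeats and is known as a backup on which recombination-deficient tumours depend.

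Library totals ranged from 14531420 to 22028956 counts, and levels are given as CPM, TMM-scaled counts per 1e6 counts, where TMM is the trimmed mean of M values over all 12 libraries. The lines carried some markers of their labels, but not all. CDX2, an intestinal factor, averaged 18.8 CPM in SW480 and 18.3 CPM in SW620, while PAX8, a Müllerian factor, averaged 556 CPM in PEO4 control. The intestinal markers KRT20, CDX1 and GPA33 averaged at most 0.515 CPM in both SW lines. The summed colorectal markers ran from 90.5 to 115 CPM in SW480 and from 281 to 402 CPM in SW620. Replicate 2 of SW480 and of SW620 deviated from their groups together (r = 0.72 across genes, which are not independent). SW620 replicate 3 held 12 PEO4-marked genes at 1.16% of their PEO4 level, against at most 0.24% in any other SW library. Carry-over of that size would make up 12.3% of its DMC1 counts and at most 2.58% (RAD50) of those of any other member. In bulk RNA, fewer expressing cells and less RNA per cell cannot be told apart.

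Promoter windows were read from RefSeq (GRCh38.p14, 250 bases before to 50 after the annotated start), which held 31 of the 34 genes; FANCI, NBN and RAD54B had no entry. They are shown for the member with the largest fall between the SW lines (BRCA2), the member with the largest rise (FANCF), the member with the most even level over the 4 groups (FANCD2), and the meiotic recombinase DMC1. Each is written 5′ to 3′ on the strand of its gene, in lower case, with capitals for the E2F words TTTGGCGC, TTTCCCGC and TTTGGCGG and for CCAAT, on either strand. The windows lie at chr13:32315258-32315557 (plus strand) for BRCA2, chr11:22625774-22626073 (minus strand) for FANCF, chr3:10026187-10026486 (plus strand) for FANCD2 and chr22:38570134-38570433 (minus strand) for DMC1.
BRCA2 promoter: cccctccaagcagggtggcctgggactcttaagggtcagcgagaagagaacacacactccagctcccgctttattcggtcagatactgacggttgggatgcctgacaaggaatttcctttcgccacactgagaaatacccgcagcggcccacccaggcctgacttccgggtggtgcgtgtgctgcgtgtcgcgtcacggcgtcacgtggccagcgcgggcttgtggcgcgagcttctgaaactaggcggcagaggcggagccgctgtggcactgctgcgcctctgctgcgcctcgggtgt
FANCF promoter: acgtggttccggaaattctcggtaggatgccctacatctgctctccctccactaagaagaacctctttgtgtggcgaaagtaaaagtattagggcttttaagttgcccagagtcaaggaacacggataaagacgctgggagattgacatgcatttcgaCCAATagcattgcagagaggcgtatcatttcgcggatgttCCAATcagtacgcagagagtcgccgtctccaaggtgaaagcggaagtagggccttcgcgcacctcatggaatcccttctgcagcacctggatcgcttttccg
FANCD2 promoter: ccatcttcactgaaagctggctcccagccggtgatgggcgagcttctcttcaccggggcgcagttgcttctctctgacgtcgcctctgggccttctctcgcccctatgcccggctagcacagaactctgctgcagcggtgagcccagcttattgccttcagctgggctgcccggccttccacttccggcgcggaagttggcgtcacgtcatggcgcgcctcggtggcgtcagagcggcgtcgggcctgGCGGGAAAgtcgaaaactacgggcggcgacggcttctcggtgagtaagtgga
DMC1 promoter: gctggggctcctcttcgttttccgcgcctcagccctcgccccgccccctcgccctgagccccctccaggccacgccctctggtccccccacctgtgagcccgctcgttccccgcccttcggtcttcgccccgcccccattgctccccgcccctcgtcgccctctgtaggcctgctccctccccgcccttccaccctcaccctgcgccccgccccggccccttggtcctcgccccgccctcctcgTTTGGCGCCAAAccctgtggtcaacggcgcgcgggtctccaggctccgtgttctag

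E2F proteins are transcription factors that switch on genes for DNA replication. An E2F word was found in 4 of the 31 members' windows (12.9%), those of FANCD2, XRCC2, FANCC and DMC1, and in 2.89% of all 35116 windows of the table. In DMC1, TTTGGCGC and its reverse complement overlap in a palindrome. CCAAT occurred in 38.7% of the members' windows, 2 copies in FANCF among them, and in 34.6% of all windows. The word TTTGAA, part of the element that times genes to late cell cycle, occurred in 16.1% and 15.2%. The window follows the RefSeq start of each gene, which can lie upstream of the main start, as for BRCA1. It can also lie inside the annotated gene, as for RAD51B, so a window need not be the promoter in use. A match describes letters only.

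Between SW480 and SW620, 3 of 4 recombination mediators fell, and 2 of the 6 genes of break sensing and resection rose. The calls of BRCA1 and MRE11 among them were lost when single libraries were left out. Of 33 members that could be tested, 13 passed edgeR's quasi-likelihood test at an adjusted p of 0.05 (39.4%), where 30.5% of all 20941 tested genes passed. Of these 13, 6 were higher in SW620 (13.5% of all genes) and 7 were lower (17.0% of all genes). Leaving out 1 library gave 4 to 7 higher and 2 to 6 lower, with 2 lower without SW480 replicate 1, SW480 replicate 3 or SW620 replicate 1, and 4 lower without SW480 replicate 2. At an unadjusted p under 0.05 there were 14 members, where 40.7% of all genes lay under it. BRCA2 and BARD1 were among the lower and FANCF, NBN, RAD51D and FANCL among the higher, and these 6 passed in all 14 alternative fits. The median log2 fold change of the 33 was -0.03, against 0.03 for all genes. The summed level of the 34 genes ran from 1399 to 1565 CPM in SW480 and from 1344 to 1553 CPM in SW620, and these ranges overlap. The authors' deposited table gave 6 members higher and 7 lower at an adjusted p under 0.05, and all 13 were those called here with the same sign.

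**Figure D1:**
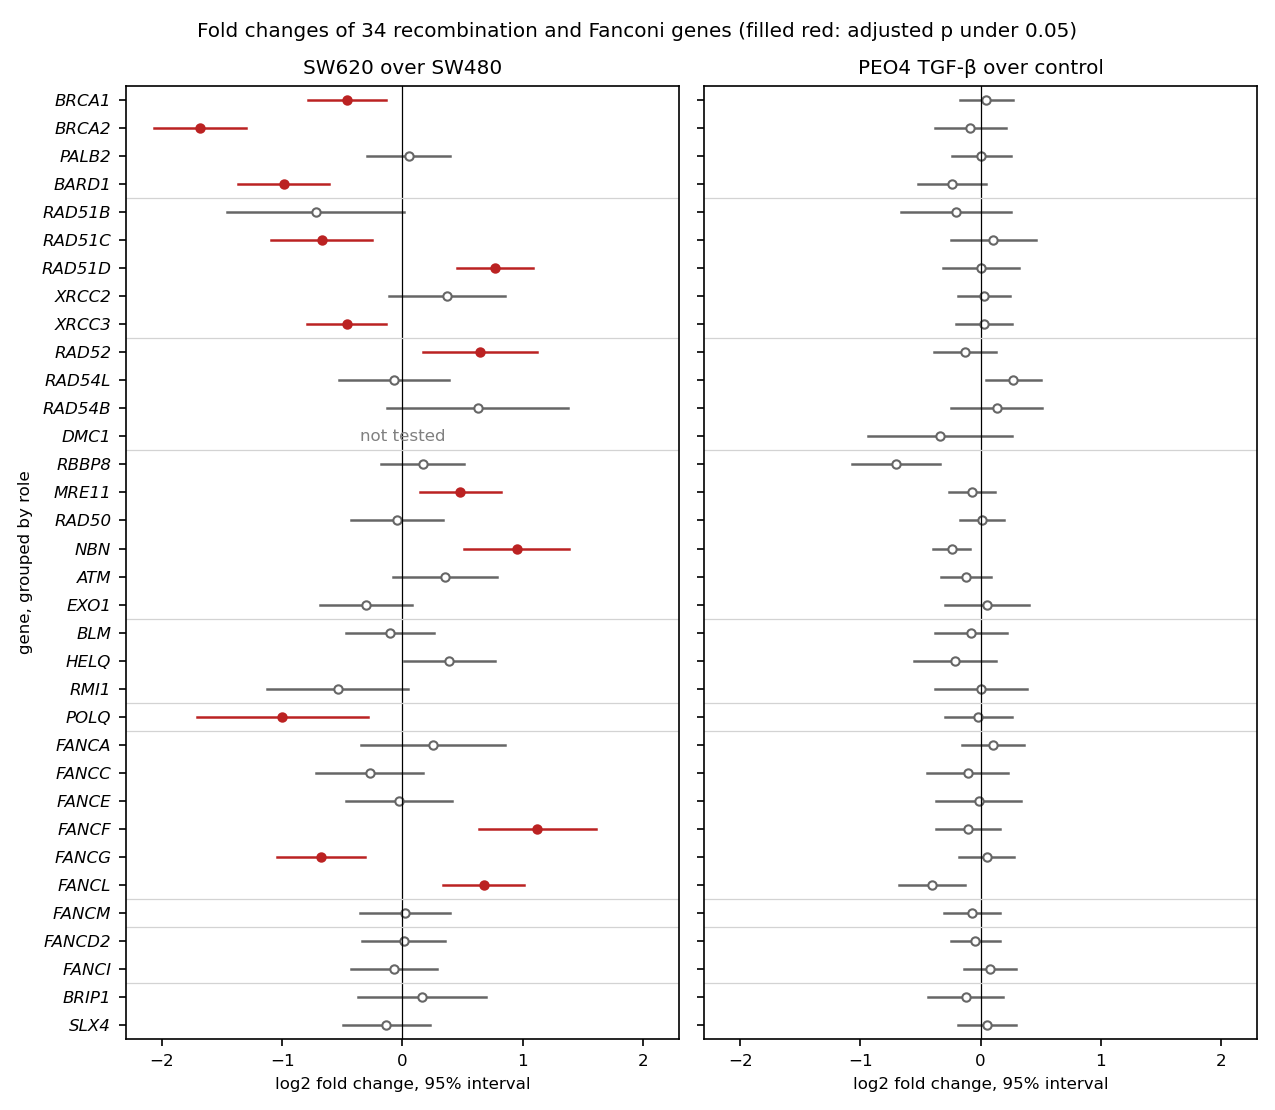
Log2 fold change of each gene (points) with its 95% interval (lines) from edgeR, SW620 over SW480 on the left and PEO4 with TGF-β over control on the right. Filled red points passed an adjusted p of 0.05: 13 of 33 genes on the left, from BRCA2 at -1.68 to FANCF at 1.12, and none of 34 on the right.

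BRCA2, a mediator of strand exchange that acts on single-stranded DNA (chromosome 13, 32315474 to 32400266 on GRCh38 in GENCODE 29, plus strand), had 116, 94.4 and 100.3 CPM in the SW480 replicates. In the SW620 replicates it had 35.7, 31.7 and 28.0 CPM, so that every SW620 library lay far below every SW480 library. The mean fell from 104 ± 11.4 to 31.8 ± 3.83 CPM (SD, n = 3), 3.21-fold lower. EdgeR gave a log2 fold change of -1.68 ± 0.17 (SE; adjusted p 0.0001), the largest of the 33 tested members in either direction.

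BARD1 and BRCA1 form a ubiquitin ligase that acts at resected ends. BARD1 (chromosome 2, 214725646 to 214809711) had 41.9, 32.7 and 39.1 CPM in SW480 and 21.0, 17.0 and 18.6 CPM in SW620. The groups did not overlap, and the gene was 1.98-fold lower in SW620 (log2 fold change -0.99 ± 0.17, SE; edgeR's adjusted p 0.00202). BRCA1 (chromosome 17, 43044295 to 43170245) had 87.5, 75.0 and 77.7 CPM in SW480 and 57.8, 56.3 and 57.8 CPM in SW620. It was 1.38-fold lower (log2 fold change -0.46 ± 0.14; edgeR's adjusted p 0.0382), and whichever of the 6 libraries was left out, it no longer passed, with an adjusted p up to 0.254 without SW480 replicate 1. Without the count filter BRCA1 did not pass either (edgeR's adjusted p 0.148).

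PALB2, the bridge between BRCA1 and BRCA2, did not pass. It had 36.0, 32.6 and 34.3 CPM in SW480 and 32.1, 32.9 and 40.1 CPM in SW620, and these ranges overlap. The 95% interval of its log2 fold change ran from -0.29 to 0.40, and whether it differs from those of its partners was not tested.

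RAD51B, RAD51C, RAD51D, XRCC2 and XRCC3 are related proteins that assemble in complexes around RAD51C and support strand exchange. Of the 5, RAD51D was higher in SW620, RAD51C and XRCC3 were lower, and RAD51B and XRCC2 did not pass. RAD51D (chromosome 17, 35092208 to 35121522) had 25.6, 25.8 and 23.7 CPM in SW480 and 41.0, 43.8 and 41.6 CPM in SW620. Its replicates were tight in both lines and it was 1.71-fold higher in SW620 (log2 fold change 0.77 ± 0.14, SE; edgeR's adjusted p 0.00293). RAD51C (chromosome 17, 58692573 to 58735611) went the other way, from 26.1, 22.7 and 26.9 CPM to 15.5, 12.7 and 18.7 CPM. Its log2 fold change was -0.67 ± 0.18 with an edgeR adjusted p of 0.0229, and it did not pass without SW480 replicate 1 (0.127) or 3 (0.11) or SW620 replicate 1 (0.116) or 2 (0.0611).

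XRCC3, the partner of RAD51C in a complex of its own, had 34.8, 35.5 and 34.7 CPM in SW480 and 24.3, 27.2 and 23.6 CPM in SW620. The groups did not overlap and the log2 fold change was -0.46 ± 0.14 (SE; edgeR's adjusted p 0.039), and it passed in 6 of 14 alternatives, of the single libraries only when SW620 replicate 2 was left out. Its exons share 76.7% of their bases with KLC1 on the opposite strand, and the sources do not say whether counting used strand, which makes its counts uncertain. RAD51D shares 8.01% of its exon bases with the readthrough transcript RAD51L3-RFFL. RAD51B had 20.7, 28.1 and 18.4 CPM in SW480 and 12.04, 20.1 and 7.99 CPM in SW620, with replicate 2 the highest in both lines. It did not pass (log2 fold change -0.72 ± 0.32; edgeR's adjusted p 0.128), and without SW620 replicate 2 its log2 fold change was -1.09 and it passed (edgeR's adjusted p 0.00894). It also passed without both replicate 2 libraries (0.0165) and without the count filter (0.0346). XRCC2 stood at 51.1, 50.4 and 42.3 CPM in SW480 and 50.8, 80.9 and 51.9 CPM in SW620, where the high value was again replicate 2.

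**Figure D2:**
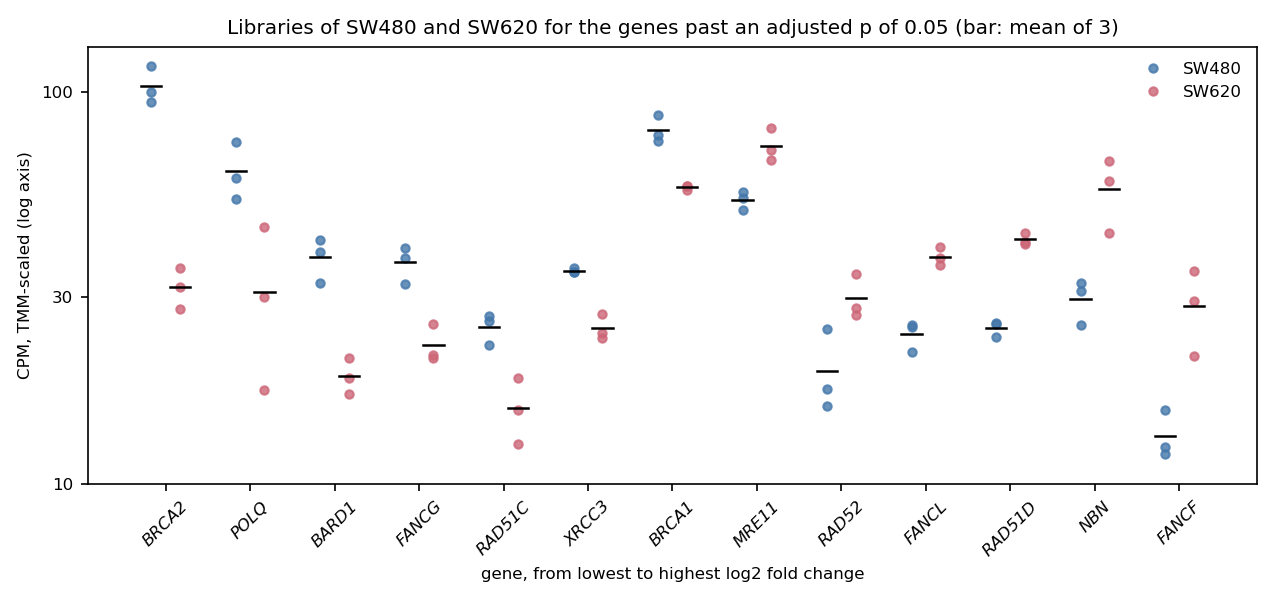
Level of the 13 genes past an adjusted p of 0.05 in each SW480 and SW620 library (points, TMM-scaled CPM on a log axis) with the mean of 3 libraries (bars), ordered by fold change. BRCA2 shows the widest gap, 104 against 31.8 CPM, and POLQ the widest spread within a line, 17.4 to 45.4 CPM in SW620.

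Of the genes of strand exchange beyond the mediators, RAD52 passed. RAD52, an annealing factor (chromosome 12, 912077 to 990053), had 17.5, 24.9 and 15.9 CPM in SW480 and 28.2, 34.4 and 27.0 CPM in SW620. It was 1.56-fold higher (log2 fold change 0.64 ± 0.21, SE; edgeR's adjusted p 0.0443), and did not pass without SW480 replicate 1 (0.15) or 3 (0.188) or SW620 replicate 1 (0.0869) or 2 (0.0611). With total-count scaling RAD52 did not pass either (edgeR's adjusted p 0.0759). RAD54L, a motor protein that drives strand invasion, and its relative RAD54B had log2 fold changes of -0.07 and 0.63 with edgeR's adjusted p of 0.839 and 0.196. Without SW620 replicate 3, RAD54B had 0.86 and passed (edgeR's adjusted p 0.0444). Their exons are shared in part with LRRC41 on the opposite strand (25.1%) and FSBP on the same strand (59.1%), so both counts are uncertain. DMC1, which acts in meiosis, was too low to be tested, at 6 to 11 counts in SW480 libraries and 4 to 14 in those of SW620.

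In the MRE11-RAD50-NBN complex, NBN and MRE11 rose and RAD50 did not pass; differences between these genes were not tested. NBN, which recruits ATM, had 32.7, 25.4 and 31.2 CPM in SW480 and 59.5, 43.8 and 66.8 CPM in SW620. All SW620 libraries lay above all SW480 libraries, a 1.93-fold rise (log2 fold change 0.95 ± 0.19, SE; edgeR's adjusted p 0.00541). MRE11, the nuclease of the complex, had 53.7, 50.1 and 55.7 CPM in SW480 and 80.9, 67.2 and 71.3 CPM in SW620. Its log2 fold change was 0.48 ± 0.15 with an edgeR adjusted p of 0.0369, which was 0.127 to 0.143 when any SW480 library or SW620 replicate 1 was left out, and 0.149 without the count filter. RAD50, the structural arm, averaged 83.9 ± 14.4 CPM and 80.1 ± 3.95 CPM (SD, n = 3), with a 95% interval of -0.43 to 0.34 for its log2 fold change. RAD50 shares 79.7% of its exon bases with AC116366.3 on the same strand, and its counts are uncertain.

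The other genes of sensing and resection did not pass in the reported fit. ATM had 188, 208 and 167 CPM in SW480 and 247, 268 and 194 CPM in SW620, with overlapping ranges (log2 fold change 0.35 ± 0.19, SE; edgeR's adjusted p 0.204). RBBP8 and EXO1 had log2 fold changes of 0.17 and -0.30. Of the helicases, HELQ, which unwinds DNA ahead of annealing, had a log2 fold change of 0.39, and BLM and its partner RMI1, which dissolve joined molecules, had -0.10 and -0.54. HELQ and EXO1 were the 2 members whose libraries did not overlap between the lines without passing, and 15 of 33 members did not overlap, where 43.9% of all tested genes did not.

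POLQ (chromosome 3, 121431427 to 121546641) had 60.4, 74.8 and 53.5 CPM in SW480 and 30.1, 45.4 and 17.4 CPM in SW620. Replicate 2 was the highest in each line, and the lines did not overlap. The log2 fold change was -1.0 ± 0.31 (SE; edgeR's adjusted p 0.0395). It did not pass without any 1 of the SW480 libraries or without SW620 replicate 1 (0.051 to 0.141), with total-count scaling (0.107) or with at least 10 counts in every library (0.0711). POLQ passed in 8 of 14 alternatives. Among them were the edgeR fits without SW620 replicate 2 (0.00289), without both replicate 2 libraries (0.00776) and without the count filter (0.00143).

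Within the Fanconi core complex 2 subunits rose, 1 fell and 3 did not pass. FANCF, an adaptor of the complex (chromosome 11, 22622890 to 22625841, minus strand), had 12.4, 11.9 and 15.5 CPM in SW480 and 29.3, 21.3 and 34.9 CPM in SW620. Its lowest SW620 library was above its highest SW480 library, and it was 2.18-fold higher (log2 fold change 1.12 ± 0.21, SE; edgeR's adjusted p 0.00382). FANCL, the ubiquitin ligase of the complex (chromosome 2, 58159243 to 58241372), had 25.4, 21.7 and 25.2 CPM in SW480 and 40.2, 37.7 and 36.1 CPM in SW620. It was higher as well (log2 fold change 0.68 ± 0.15; edgeR's adjusted p 0.00781). FANCF and FANCL overlap exons of GAS2 (11.3%) and VRK2 (18.7%) on the opposite strand.

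FANCG, a scaffold subunit (chromosome 9, 35073835 to 35080016), had 40.1, 32.4 and 37.8 CPM in SW480 and 20.9, 21.4 and 25.6 CPM in SW620. It was lower (log2 fold change -0.68 ± 0.16, SE; edgeR's adjusted p 0.0118), and it did not pass without SW480 replicate 1 (0.0985) or 3 (0.0664) or SW620 replicate 1 (0.0915). FANCA, FANCC and FANCE had log2 fold changes of 0.26, -0.27 and -0.03. FANCA was highest in replicate 2 of SW620, with 67.2, 112 and 55.3 CPM in that line against 66.1, 76.2 and 57.5 CPM in SW480, and 23.6% of its exon bases are shared with ZNF276 on the opposite strand.

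The targets of the core complex did not pass. FANCD2 (chromosome 3, 10026414 to 10101930) had 56.3, 45.4 and 48.0 CPM in SW480 and 52.6, 46.6 and 49.4 CPM in SW620. The 95% interval of its log2 fold change was -0.33 to 0.36, and that of its partner FANCI was -0.43 to 0.29. FANCM, which anchors the core complex, BRIP1, the helicase bound by BRCA1, and SLX4, a scaffold for nucleases, had log2 fold changes of 0.02, 0.17 and -0.13, and none passed.

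Among 61 other genes of these pathways, a list that holds no member, 59 were tested and 14 passed, 6 higher and 8 lower, with a median log2 fold change of -0.03. This is a smaller share than the 30.5% of all tested genes that passed, and the genes below are named as a description. The higher genes with the largest changes were RFWD3 (1.31), a ubiquitin ligase of crosslink repair, CENPX (1.19), a partner of FANCM, the nuclease DNA2 (1.16), the polymerase subunit REV3L (0.65) and the helicase WRN (0.56), as log2 fold changes. The lower ones were SWI5 (-1.57), the helicase RTEL1 (-0.95), MAD2L2 (-0.68), the nuclease subunit EME1 (-0.66) and ERCC1 (-0.65), a subunit of a crosslink-cutting nuclease. RTEL1, ERCC1 and EME1 share 70.2%, 28.6% and 16.4% of their exon bases with other genes.

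Cell cycle genes were counted in the same comparison, where 30.5% of all tested genes passed and 17.0% were lower. Of 30 S-phase and replication genes, 6 passed and all 6 were lower in SW620, a share near the background, with a median log2 fold change of -0.18 over the list. Of 20 mitosis genes, 11 passed and all 11 were lower, with a median of -0.79. The summed level of the mitosis list was 2370 to 3200 CPM in SW480 and 1395 to 1954 CPM in SW620, without overlap, and that of the S-phase list was 2107 to 3317 and 1933 to 2870 CPM, with overlap. Their part in the changes of BRCA2, BARD1, BRCA1 and POLQ was not tested.

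Levels in PEO4 and in the SW lines are compared as a description without a test, since origin and medium differ together and cannot be told apart. All 6 PEO4 libraries lay below all 6 SW libraries for 16 of the 34 members, where this held for 18.1% of 23457 genes. All 6 lay above for 4 members, where this held for 21.1% of genes. With total-count scaling these counts were 20 and 3. The summed level of the 34 genes was 1149 to 1293 CPM over the PEO4 libraries, below every SW library.

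The 4 members higher in PEO4 were DMC1, NBN, RAD50 and RBBP8. DMC1 had 2.24, 1.85 and 2.43 CPM in untreated PEO4 and 1.76, 2.04 and 1.48 CPM in treated PEO4, against 0.554, 0.410 and 0.309 CPM in SW480 and 0.682, 0.378 and 0.186 CPM in SW620. The PEO4 mean was 4.69-fold that of the SW lines, on 30 to 47 counts per PEO4 library. NBN averaged 135 ± 7.26 CPM in PEO4 control and RAD50 170 ± 17.9 CPM (SD, n = 3), 2.90-fold and 2.10-fold the SW mean when both PEO4 groups are taken. MRE11, the third subunit of the same complex, was 1.96-fold higher in the SW lines.

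The members lowest in PEO4 against the SW lines were FANCA (3.84-fold higher in SW), BRCA2 (3.68-fold), FANCC (3.49-fold), EXO1 (3.22-fold) and RAD51D (3.07-fold). BRCA2 had 21.4, 19.1 and 15.7 CPM in untreated PEO4 and 19.2, 18.4 and 16.5 CPM in treated PEO4, below SW620 at 28.0 to 35.7 CPM and far below SW480. Its order was thus SW480, SW620, then the PEO4 groups, which overlap each other. BRCA1 had 54.3, 45.5 and 42.7 CPM in PEO4 control, and all PEO4 libraries lay below 56.3 CPM, the lowest SW library. The S-phase list summed to 977 to 1215 CPM over the PEO4 libraries, below every SW library. The mitosis list summed to 1289 to 1798 CPM in PEO4, which overlaps SW620 at 1395 to 1954 CPM, and the other pathway genes to 2049 to 2253 CPM, which overlaps SW480 at 2114 to 2359 CPM. The part of these lists in the differences was not tested.

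FANCD2 was the most even member, averaging 49.9 ± 5.70 CPM in SW480, 49.5 ± 2.95 CPM in SW620, 50.3 ± 4.77 CPM in untreated PEO4 and 49.8 ± 1.44 CPM in treated PEO4 (SD, n = 3). PALB2 had 37.3, 36.4 and 39.4 CPM in untreated PEO4 and 34.7, 37.2 and 44.2 CPM in treated PEO4. Its untreated PEO4 libraries all lay above the highest SW480 library (36.0 CPM), and every other pair of groups overlapped. Per kilobase of exon, the scale on which genes can be compared, RBBP8 (29.3), NBN (21.9) and RAD50 (17.4 CPM per kilobase) led in PEO4 control. In SW480 the leading members were FANCI (13.9), RBBP8 (13.1) and FANCG (10.2 CPM per kilobase), and in SW620 FANCL (15.8), RBBP8 (14.5) and FANCI (13.0 CPM per kilobase). DMC1 was the lowest member in all 4 groups, from 0.118 CPM per kilobase in SW620 to 0.617 in PEO4 control. These lengths count every annotated exon of a gene, so genes with long unused exons are understated.

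**Figure D3:**
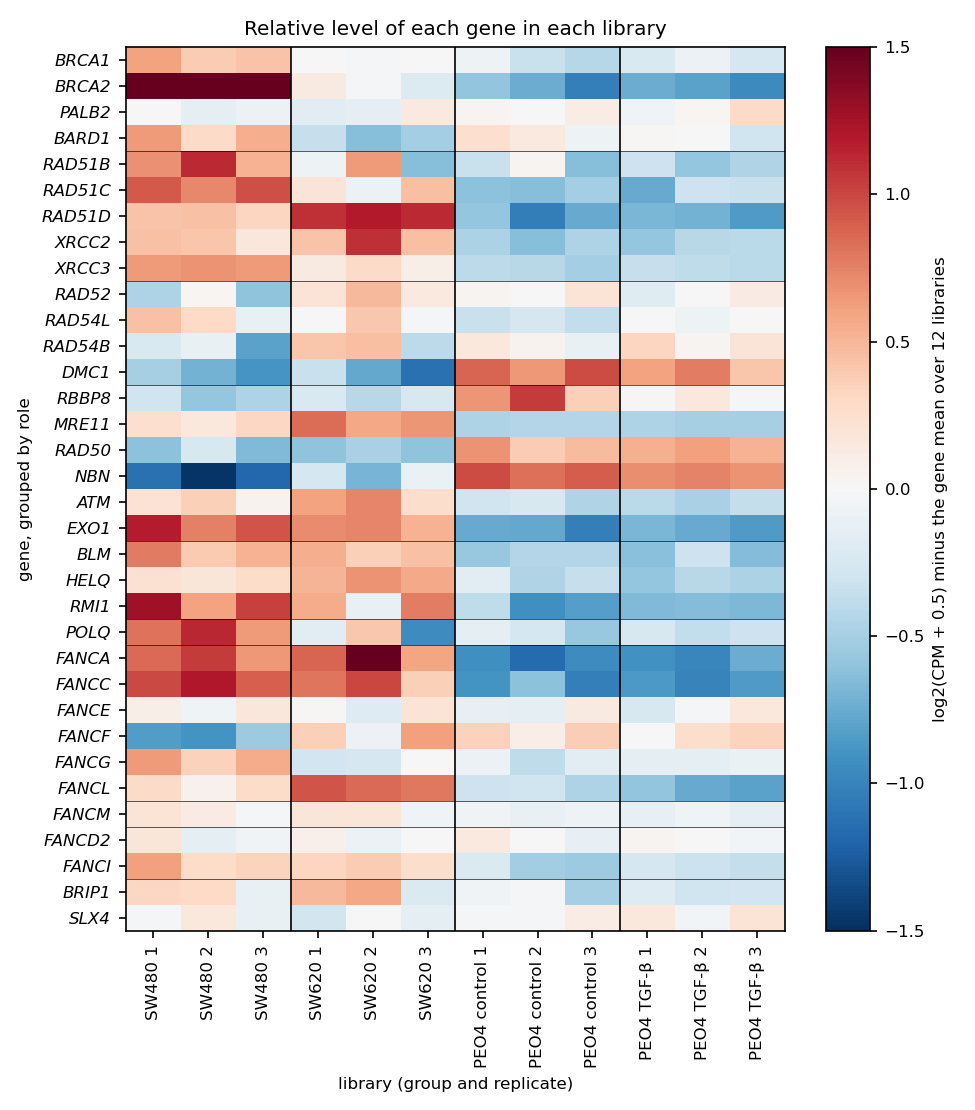
Level of each gene in each of the 12 libraries, as log2(CPM + 0.5) minus the mean of that gene over all libraries (red above, blue below, colours saturating at 1.5 either way), with genes grouped by role and libraries by group. BRCA2 is deep red in SW480, where it averaged 104 CPM, FANCA is highest in SW620 replicate 2 at 112 CPM, and FANCD2 is pale throughout.

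In PEO4, 6 days of TGF-β changed none of the 34 members past the threshold. All 34 were tested and 0 passed edgeR's quasi-likelihood test at an adjusted p of 0.05, where 2.26% of 19064 genes passed, 1.27% higher and 0.991% lower. At an unadjusted p under 0.05 there were 4 members, where 16.7% of all genes lay under it, and DESeq2 called 1. The median log2 fold change of the members was -0.03, against -0.02 for all genes. Libraries of the groups did not overlap for 4 members, RBBP8, NBN, FANCL and RAD54L, where 20% of all tested genes did not overlap. These 4 are described because of their values, outside the rule for naming genes.

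RBBP8 (chromosome 18, 22798261 to 23026488, plus strand), the resection factor CtIP, had 143, 188 and 117 CPM in control and 91.6, 101 and 89.8 CPM with TGF-β. The control libraries were spread widely and the treated ones were close together, all below the lowest control. The mean was 149 ± 36.1 CPM in control and 94.1 ± 5.97 CPM with TGF-β (SD, n = 3). The log2 fold change of -0.70 ± 0.16 (SE) did not pass (edgeR's adjusted p 0.0636). The authors' deposited table gave RBBP8 a log2 fold change of -0.70 with an adjusted p of 0.00111, the 1 member called there. Over 13 alternatives its adjusted p ran from 4.06e-06 without a count filter to 0.215 without TGF-β replicate 1 (edgeR), and it passed in 6, among them the fits without control replicate 1 (0.047) and without control replicate 3 (0.0203).

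The other 3 had smaller differences. NBN had 142, 127 and 135 CPM in control and 116, 120 and 114 CPM with TGF-β, a log2 fold change of -0.24 ± 0.07 (SE; edgeR's adjusted p 0.121). FANCL had 16.6, 16.8 and 14.9 CPM in control and 13.6, 12.1 and 11.7 CPM with TGF-β (-0.40 ± 0.12; edgeR's adjusted p 0.146). RAD54L had 19.7, 20.9 and 19.2 CPM in control and 25.1, 23.8 and 25.2 CPM with TGF-β (0.27 ± 0.10; edgeR's adjusted p 0.219).

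None of the 4 mediators passed. BRCA1 had 48.7, 53.8 and 48.2 CPM with TGF-β, and the 95% interval of its log2 fold change was -0.17 to 0.27. For BRCA2 the interval was -0.38 to 0.21, for PALB2 -0.24 to 0.26 and for BARD1 -0.52 to 0.04. FANCD2 had 55.1, 50.1 and 45.6 CPM in control and 51.4, 49.5 and 48.5 CPM with TGF-β, with an interval of -0.25 to 0.16. POLQ had 30.7, 28.3 and 22.8 CPM in control and 28.8, 26.3 and 27.4 CPM with TGF-β, with an interval of -0.29 to 0.26. The remaining 24 members had log2 fold changes between -0.34 (DMC1) and 0.13 (RAD54B).

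**Figure D4:**
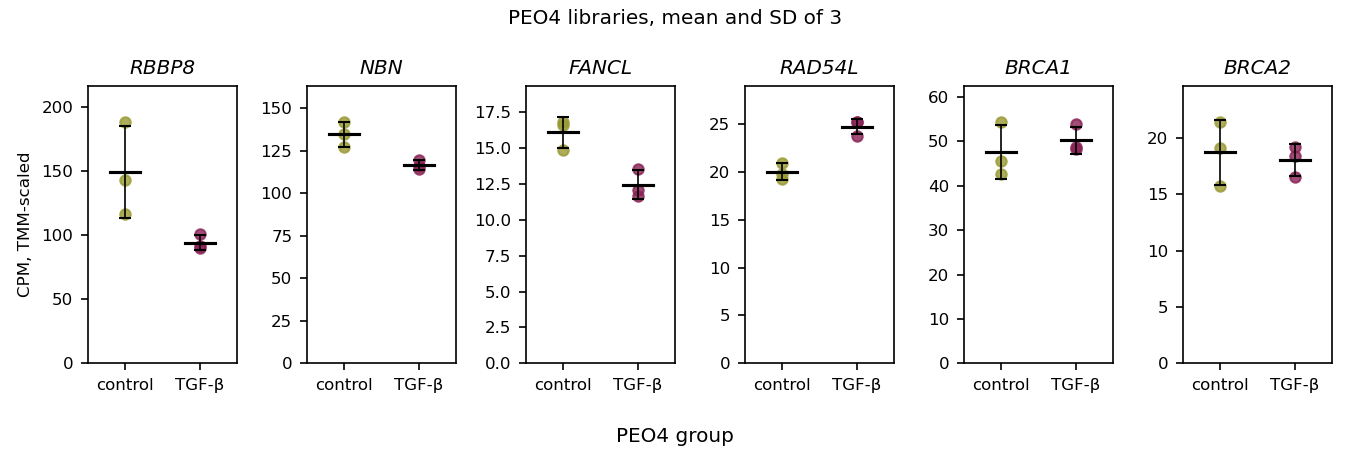
Level in the 3 control and 3 TGF-β libraries of PEO4 (points, TMM-scaled CPM, linear axes from 0) with mean and SD (bars), for the 4 genes whose libraries did not overlap and for BRCA1 and BRCA2. RBBP8 averaged 149 CPM in control, with a wide spread, and 94.1 CPM with TGF-β, and none of the 6 genes passed an adjusted p of 0.05.

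Of the other pathway genes, 0 of 59 tested passed in edgeR's test in the PEO4 comparison and 9 had an unadjusted p under 0.05. No S-phase gene of 30 and no mitosis gene of 20 passed, with median log2 fold changes of 0.07 and -0.02. The summed mitosis level was 1376 to 1798 CPM in control and 1289 to 1766 CPM with TGF-β, with overlap. That of the S-phase list was 977 to 1082 CPM in control and 1085 to 1215 CPM with TGF-β, without overlap. Of 8 ovarian epithelial markers 4 passed and all 4 were lower, and their sum ran from 5624 to 8981 CPM in control and from 3157 to 4963 CPM with TGF-β, without overlap. Their part in the RBBP8 difference was not tested.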

How the data were processed

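Total RNA was depleted of ribosomal RNA, treated with DNase and sequenced, per the labels. The submitters' processing notes name Trimmomatic 0.36, STAR 2.5.2b, featureCounts (Subread 1.5.2), DESeq2 and GRCh38, without roles; annotation and strand use are not given in the sources used here. The authors deposited raw counts per Ensembl gene, and tables with log2 fold changes and p-values, per the file headers, used here only for comparison of calls. Each comparison was fitted on its 6 libraries with edgeR 4.0.16 (R 4.3.3): filterByExpr, TMM, quasi-likelihood F-test, two-sided, Benjamini-Hochberg over all genes tested, threshold 0.05. The SE is the log2 fold change over the square root of F, and intervals use the fit's degrees of freedom. Exact permutation of 3 against 3 cannot go below p = 0.1, so single genes rest on the model. Exon lengths and overlaps come from GENCODE 29 (GRCh38). Intervals and low counts cover counting and replicate error of amplified reads without molecular identifiers.

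The members and lists were chosen with earlier results of these data known. The rule for naming took members past the threshold, BRCA1, BRCA2, PALB2, FANCD2, POLQ and DMC1, and up to 5 other pathway genes per direction and comparison; 1 further gene that it named is not reported here. Alternatives were DESeq2 1.42.0, RLE or total-count scaling, omission of the count filter, a minimum of 10 counts per library, 1 model over all 12 libraries, a block for the replicate number, and omission of each library in turn. Chosen after seeing the data were the SW fit without both replicate 2 libraries and the alternatives for the PEO4 against SW overlap. The scripts were tested on simulated counts. There, 27.7% of 2-fold changes were recovered in the SW comparison and 61.5% in the PEO4 comparison. For 1.5-fold changes the shares were 4.55% and 47.7%, so a gene that did not pass may still differ. The labels call the replicates biological without saying how the cultures were separated, so p-values measure only the spread between these samples, which may be technical. EdgeR was used for every adjusted p unless named otherwise.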

Additional observations from a re-analysis of the deposited data

How the results depend on the processing

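Between the SW lines, members called higher or lower were 6 and 7. Leaving out 1 library gave 4 to 7 higher and 2 to 6 lower, with 4253 to 7419 genes called in all against 6385, and the median log2 fold change of the members ran from -0.084 without SW480 replicate 3 to 0.083 without SW480 replicate 1. The calls lower were 2 without SW480 replicate 1, SW480 replicate 3 or SW620 replicate 1, and 4 without SW480 replicate 2. Without both replicate 2 libraries they were 6 and 8, with 7532 genes called. With the replicate number as a block, 10 members were higher and 9 lower, RAD51B among the lower (adjusted p 0.000448), and 10667 genes were called. The block also called RMI1 lower (edgeR's adjusted p 0.00341). It called HELQ (0.0369), RAD54B (0.0196), ATM (0.0163) and XRCC2 (0.0398) higher. RMI1, HELQ, ATM and XRCC2 passed in no other alternative. Same-numbered SW libraries correlated in their deviations at 0.06, 0.72 and 0.63, and the PEO4 ones at 0.34, -0.11 and 0.53. Differently numbered libraries ran from -0.67 to 0.33 in the SW lines and from -0.51 to 0.21 in PEO4. Replicates 2 and 3 of the SW lines thus deviated by number. Replicate 1 of the SW lines and replicate 2 of PEO4 did not, so the numbers were not taken to pair the libraries. Members that passed only with the block would count as called if the numbers did pair them. No member changed direction with a call under any alternative.

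In PEO4, 431 genes were called, and 72 to 1080 when 1 library was left out (72 without control replicate 2, 1080 without control replicate 1). The count was 967 with DESeq2, 1457 without the filter, 165 with all 12 libraries in 1 model and 2102 with the replicate block. Members called lower were 0 in the reported fit, 0 to 1 when 1 library was left out, 1 with DESeq2, with total-count scaling and without the filter (RBBP8 each time), and 2 with the block (RBBP8 and FANCL). Members called higher were 0 throughout. The median moved between -0.05 and 0.01 over the fits without 1 library. The count of members lower in PEO4 than in the SW lines was 16 to 17 over the fits without 1 library, and that of members higher was 4 in each. At 4 to 14 counts, DMC1 was below the depth at which the SW lines could be compared.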
